A study of Mus musculus with 18 samples.

Results

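Sox1, Pax6, Pax3, Zic1, Olig2, Hes5, Nes, Fabp7 and Tubb3 were followed by RNA-Seq in mouse pluripotent cells grown in N2B27 medium, either with the 2i inhibitors and LIF or with induced reprogramming factors. The 9 genes were taken by name, as genes of the neural lineage from the neural plate to the young neuron, out of 55471 genes in the files, and each was read in all 18 samples. The cells carried a DOX-inducible OSKM transgene (Oct4, Sox2, Klf4 and c-Myc) in Col1a1, the M2rtTA trans-activator in Rosa26 and, in the ESC line, a GFP driven by the Oct4 distal promoter. 2iL-ESCs stayed in N2B27 with the MEK inhibitor PD0325901, the GSK3 inhibitor CHIR99021 and LIF, and OSKM-ESCs of the same line were moved to N2B27 with DOX. Both were collected on days 18, 25 and 38 after the change of medium, with 2 cultures per medium and day. OSKM-iPSCs (clone 1 at passage 7, clone 3 at passage 6) and 2iL-iPSCs (clone 3 at passage 2, clone 6 at passage 3) came from MEF cells, mouse embryonic fibroblasts, of which 2 samples at passage 4 were grown in DMEM with FBS.

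Several limits of these groups bear on every value. OSKM medium differed from 2iL medium both in what it lacked (2i and LIF) and in what it added (DOX, and so OSKM), and these cannot be told apart. ESCs in N2B27 alone, which the paper reports to have differentiated and died at high rates, were not analysed here. The ESCs were 1 line from a cross of a (C57BL/6 x 129S4/SvJae)F1 with a (CBA/CaJ X C57BL/6J)F2, and the iPSCs and MEF cells were (C57BL/6 x 129S4/SvJae)F1. The ESC line was derived and kept in 2iL medium on feeder layers of MEF cells, and reprogramming used such feeders too. The methods do not say whether ESCs in OSKM medium stayed on feeders. In iPSCs, medium and passage cannot be told apart. For 2iL-iPSCs the sample labels name N2B27 with DOX as the daily medium, whereas the design text and the methods name 2iL with DOX withdrawn, so these 2 clones were grouped by title. No source states that the cultures were set up independently, and p-values measure the spread between these cultures, which may be technical.

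N2B27 is a serum-free medium made for neural cells, and without added factors ESCs in it tend towards a neural fate, which starts when FGF and ERK signalling is active and BMP and Wnt signals are low. The N2B27 of the study was slightly modified and also held Knockout Serum Replacement. Sox1 is the earliest marker of the neural plate, and Pax6, Pax3, Zic1 and Olig2 are transcription factors that pattern the neural tube. Hes5 is a target of Notch signalling that keeps progenitors dividing, Nes (nestin, an intermediate filament) and Fabp7 (a fatty acid binding protein of radial glia) mark progenitors, and Tubb3 (beta-III tubulin) is a microtubule gene of young neurons. Several of these genes are also used outside the neural lineage, among them Nes in fibroblasts and muscle precursors and Pax3 and Zic1 in somites.

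Values are FPKM, fragments per kilobase of transcript scaled to the number of mapped fragments, which can be compared between genes because they are set per length. Differences between groups are on the log2(FPKM + 1) scale, which understates changes of low genes. A gene was tested where its FPKM was over 1 in at least 1 sample compared, and was called where limma's Benjamini-Hochberg adjusted p over all genes tested was under 0.05.

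The genes lie on 8 chromosomes of GRCm38. Hes5 (ENSMUSG00000048001, chr4:154960923-154962371, plus strand), Fabp7 (ENSMUSG00000019874, chr10:57784881-57788450, plus strand) and Zic1 (ENSMUSG00000032368, chr9:91358058-91365810, minus strand) had their highest ESC levels on day 38 in OSKM medium. The bases before their starts are shown because these genes rose together there and because Hes5 is a known target of the Notch effector RBPJ. The stretches are from RefSeq on GRCm38.p6, are written 5′ to 3′ on the strand of the gene, and stop where the annotated gene begins. Capitals mark the RBPJ core TGGGAA or its reverse complement TTCCCA and the E box CANNTG, the motif of basic helix-loop-helix factors.
Hes5, chr4:154960673-154960922: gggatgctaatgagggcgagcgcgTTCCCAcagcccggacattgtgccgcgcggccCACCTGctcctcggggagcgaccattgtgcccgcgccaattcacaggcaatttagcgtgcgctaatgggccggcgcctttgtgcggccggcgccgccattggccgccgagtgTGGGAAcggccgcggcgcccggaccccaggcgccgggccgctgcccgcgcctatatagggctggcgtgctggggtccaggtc
Fabp7, chr10:57784673-57784880: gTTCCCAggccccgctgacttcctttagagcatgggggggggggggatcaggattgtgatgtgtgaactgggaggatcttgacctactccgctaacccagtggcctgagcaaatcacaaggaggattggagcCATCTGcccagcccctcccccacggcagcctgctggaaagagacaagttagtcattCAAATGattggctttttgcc
Zic1, chr9:91365811-91366018: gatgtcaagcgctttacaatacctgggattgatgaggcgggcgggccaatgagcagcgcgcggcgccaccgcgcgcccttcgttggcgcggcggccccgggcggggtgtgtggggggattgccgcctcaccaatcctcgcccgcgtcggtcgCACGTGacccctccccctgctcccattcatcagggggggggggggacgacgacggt

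The Hes5 stretch held the RBPJ core in reverse complement at -226 and forward at -82, counted from the RefSeq start, with an E box at -194 between them. The Fabp7 stretch held the RBPJ core in reverse complement at -249 and E boxes at -118 and -62. The Zic1 stretch held an E box at -98 and no RBPJ core. Such matches are common, since 25.6% of the 32851 RefSeq promoter windows of 300 bases (250 before and 50 after the start) held the RBPJ core and 72.3% held an E box.

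RefSeq windows were found for 8 of the 9 genes, with 2 starts for Pax6, and Pax3 was not matched. In the Tubb3 window the SOX core ACAATG lay at -146 and -96, and in the Hes5 window at -211 and -172. Olig2 had a SOX core at -68 and a TATA box TATAAA at -8. The SOX core was in 12.6% of all windows, the TATA box in 13.6% and the N box CACNAG, a HES binding motif found at -136 in Fabp7 and in the second Pax6 window, in 42.5%. The Sox1 window held 1 RBPJ core, in reverse complement at 42 after the start, and the Nes window and the first Pax6 window held none of the 5 motifs. All SOX cores were in reverse complement. By the annotated gene starts, the Sox1 and Olig2 matches, the Tubb3 match at -96 and the second Pax6 window lay inside the genes. All motifs were searched on both strands, and each is a match of letters, not a measured site.

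**Figure D1:**
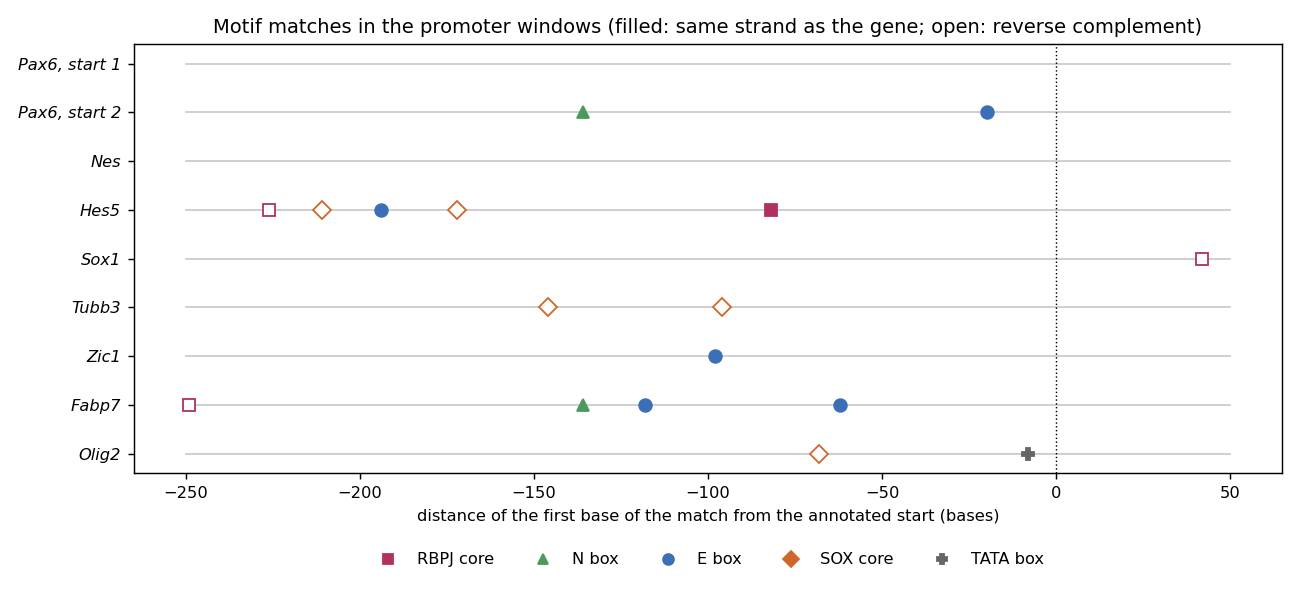
Motif matches in the RefSeq promoter windows of the neural lineage genes, by distance of the first base from the start in bases (x axis), 1 line per window (y axis) and 1 marker shape per motif, filled where it lies forward and open in reverse complement. Hes5 is the window with 2 RBPJ cores, and no marker stands in the Nes window or in the first Pax6 window.

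Sox1, an SRY-box factor of the earliest neural plate (ENSMUSG00000096014, chr8:12395295-12400126, plus strand, a single exon of 4832 bases), was listed at 0 FPKM in all 18 samples. This is a listing and not a measured absence. The Sox1 exon holds, on the same strand, Gm25239 (chr8:12396403-12396488, 86 bases), which the annotation calls a miRNA gene. Gm25239 read 0.820 and 1.49 FPKM on day 18, 3.30 and 2.45 on day 25 and 2.44 and 1.26 on day 38 in OSKM-ESCs, 4.91 and 1.73 in OSKM-iPSCs, and at most 0.131 in the other 10 samples. All 6 OSKM-ESC cultures therefore stood above all 6 2iL-ESC cultures, as was so for 14.6% of all genes tested. Gm25239 averaged 1.96 against 0.0420 FPKM. It passed the filter only through OSKM-ESCs, so its direction there was fixed by the filter.

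A scan made after this value was seen found 7 single-exon coding genes that hold a shorter gene on the same strand, of which 4 were listed at 0 in all 18 samples. These 4 are Sox1, Foxd3 (a factor of pluripotent cells and neural crest), Purb and Hist1h1e, and for 3 of them, Hist1h1e being the exception, the nested gene exceeded 1 FPKM in some sample. Of the 1239 single-exon coding genes with no nested gene, 528 (42.6%) were listed at 0 throughout. Which gene the fragments of the Sox1 exon were credited to was not tested, and Sox1 is left out of the statements that follow.

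Pax6, a paired-box factor of forebrain, eye and ventral neural tube (ENSMUSG00000027168, chr2:105668900-105697364, plus strand), was low in every sample and higher in OSKM-ESCs than in 2iL-ESCs. In OSKM-ESCs its FPKM was 0.687 and 0.609 on day 18, 1.25 and 1.10 on day 25, and 1.22 and 1.53 on day 38. In 2iL-ESCs it was 0.554 and 0.297, then 0.186 and 0, then 0.135 and 0.189 on the same days. All 6 OSKM-ESC cultures lay above all 6 2iL-ESC cultures, as was so for 14.6% of all genes tested, and the closest values were those of day 18. Pax6 passed the filter only through OSKM-ESCs, so a difference was built into the filter. In bulk RNA, fewer cells that express a gene and less of its RNA per cell cannot be told apart, here and in all that follows. The difference over all days was 0.75 on the log2 scale (SE 0.14, adjusted p = 0.000864, limma with day as a covariate). It was 1.0 on day 25 (adjusted p = 0.00596) and 1.03 on day 38 (adjusted p = 0.00182), while on day 18 Pax6 stayed under the filter. The interaction of medium and day was called (adjusted p = 0.0123) and was lost without the first 2iL-ESC culture of day 18.

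Over all days, 7 of the 8 genes tested were called, 6 of them higher in OSKM-ESCs and 1 lower, beside 53.8% of all genes tested (29.5% higher and 24.4% lower). Pax6, Pax3, Zic1, Hes5 and Fabp7 passed the filter only through OSKM-ESCs, so a difference for them was built into the filter and their count supports nothing. Nes, Tubb3 and Olig2 passed it in both media. The median difference over all genes was 0.03 on the log2 scale.

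Nes, the intermediate filament of neural progenitors (ENSMUSG00000004891, chr3:87971078-87980451, plus strand), showed the largest difference among the 3 genes well above the filter in both media. Its FPKM in OSKM-ESCs was 13.4 and 16.1 on day 18, 12 and 13 on day 25, and 19.4 and 19 on day 38. In 2iL-ESCs it was 3.81 and 4.68, then 5.74 and 5.40, then 6.99 and 6.90. The lowest OSKM-ESC culture was thus well above the highest 2iL-ESC culture, and in both media the highest cultures were those of day 38. The means were 15.5 ± 3.20 and 5.59 ± 1.24 FPKM (SD, n = 6 each), a ratio of 2.77. The log2 difference was 1.32 (SE 0.10, adjusted p = 4.56e-07, limma), and the exact two-sided permutation test gave p = 0.002165, the smallest that 6 against 6 samples allow. Groups that did not overlap, with OSKM-ESCs on top, were found for 14.6% of all genes tested.

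By day, the ratio of mean Nes FPKM was 3.47 on day 18 (adjusted p = 0.000368), 2.24 on day 25 (adjusted p = 0.00138) and 2.77 on day 38 (adjusted p = 6.01e-05, limma). Whether these ratios differed between days lay next to the threshold, with an adjusted p of 0.0504 for the interaction of medium and day, and it was called without the first OSKM-ESC or the second 2iL-ESC culture of day 18. Nes levels differed between days within OSKM-ESCs (adjusted p = 0.0212) and within 2iL-ESCs (adjusted p = 0.0108). The day 25 call was lost in a single limma fit of all 9 conditions (adjusted p = 0.0636).

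Nes is also a fibroblast gene here, at 20.7 and 24.2 FPKM in MEF cells. The summed FPKM of 15 fibroblast markers was 25.3 to 38.2 in OSKM-ESCs, 5.50 to 7.07 in 2iL-ESCs and 1407 to 1600 in MEF cells. Of those markers, 11 were tested over all days, and 10 were called higher, beside 29.5% of all genes tested. Of these 10, 7 passed the filter only through OSKM-ESCs, so the filter fixed their direction. The median log2 difference of the 11 was 1.06. Col1a2, a fibrillar collagen of fibroblasts, read 3.68 to 8.25 FPKM in OSKM-ESCs, 0.561 to 1.29 in 2iL-ESCs and 516 and 440 in MEF cells. The part of fibroblast RNA in the Nes difference was not tested.

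Fabp7, a fatty acid binding protein of radial glia, had its highest ESC values on day 38 in OSKM medium. Its FPKM in OSKM-ESCs was 1.06 and 0.713 on day 18, 0.704 and 0.563 on day 25, and 10.9 and 11.3 on day 38. In 2iL-ESCs it was listed at 0 in 4 of 6 cultures and was 0.0588 and 0.133 in the others. The groups did not overlap, with OSKM-ESCs on top, as was so for 14.6% of all genes tested. The day 38 cultures of OSKM-ESCs stood far above the rest. Over all days the difference was 1.69 on the log2 scale (SE 0.39, adjusted p = 0.0028, limma), and on day 38 it was 3.51 (SE 0.11, adjusted p = 2.07e-05). The difference varied between days (interaction adjusted p = 9.01e-06), and so did the level within OSKM-ESCs (adjusted p = 0.000108). On day 18, with both 2iL-ESC cultures at 0, Fabp7 was called with an adjusted p of 0.00658. MEF cells held Fabp7 at 4.93 and 6.70 FPKM.

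**Figure D2:**
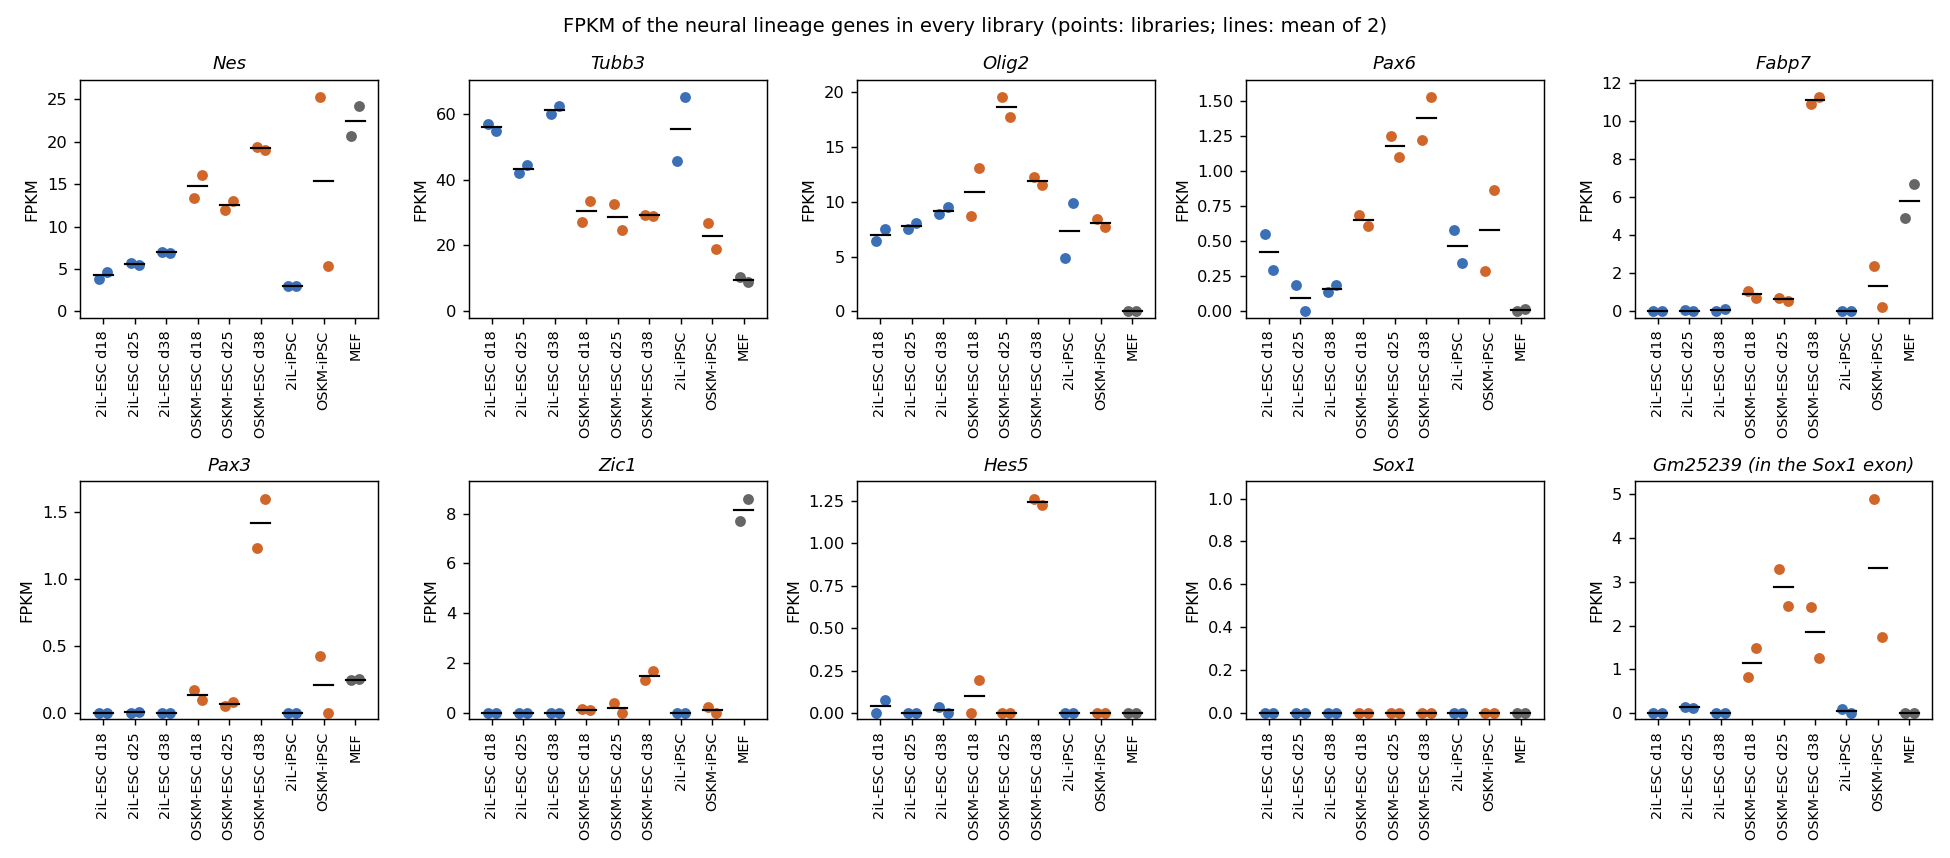
FPKM (y axis) of each neural lineage gene and of Gm25239 in the 18 samples by group (x axis), 1 panel per gene with its own scale, where each point is a sample and the line is the mean of 2 (blue 2iL medium, orange OSKM medium, grey MEF cells). Pax3, Zic1, Hes5 and Fabp7 have their highest ESC values in the 2 OSKM-ESC cultures of day 38, Tubb3 is higher in 2iL medium, and Sox1 is listed at 0 throughout.

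Pax3 and Zic1, transcription factors of the dorsal neural tube, neural crest and somites, followed the same days. Pax3 (ENSMUSG00000004872, chr1:78101267-78197134, minus strand) read 0.173 and 0.0995 FPKM on day 18, 0.0491 and 0.080 on day 25, and 1.23 and 1.60 on day 38 in OSKM-ESCs. In 2iL-ESCs it was listed at 0 in 5 of 6 cultures and was 0.0107 in the other. The groups did not overlap, as was so with OSKM-ESCs on top for 14.6% of all genes tested, but outside day 38 every value was low. Pax3 was called over all days (0.51 on the log2 scale, SE 0.18, adjusted p = 0.0283, limma) and on day 38 (adjusted p = 0.0010). The all-days call rested on day 38, since without any one of the 4 day 38 cultures the adjusted p was between 0.0668 and 0.0712, and with no filter on low values it was 0.0546.

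Zic1, a zinc-finger factor, read 0.145 and 0.132 FPKM on day 18, 0.387 and 0 on day 25, and 1.32 and 1.69 on day 38 in OSKM-ESCs. The 2iL-ESC cultures were listed at 0 except 1 of day 18 at 0.00826. The groups overlapped through the OSKM-ESC culture of day 25 that was listed at 0. Zic1 was called over all days (0.58 on the log2 scale, SE 0.18, adjusted p = 0.018, limma, and exact permutation p = 0.01515) and on day 38 (adjusted p = 0.000858). Its highest values of all were in MEF cells, at 7.72 and 8.61 FPKM, where Pax3 read 0.244 and 0.253. The change between media differed between days for Pax3 (interaction adjusted p = 0.000649) and for Zic1 (0.00435), although the Zic1 interaction was lost with a pseudocount of 0.1.

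Hes5, the Notch target, was low in every sample but 2. It read 1.26 and 1.23 FPKM in the OSKM-ESC cultures of day 38, and 0.197 in 1 OSKM-ESC culture of day 18. In the other 9 ESC cultures it was at most 0.0774, and it was listed at 0 in all iPSC clones and MEF samples. On day 38 Hes5 was called (1.14 on the log2 scale, SE 0.13, adjusted p = 0.000974, limma). Over all days it was the gene that missed the threshold (0.41, SE 0.17, adjusted p = 0.0671), although it passed in the fit of all 9 conditions (adjusted p = 0.000166) and without 1 OSKM-ESC culture of day 18 (adjusted p = 0.0455). Its level differed between days within OSKM-ESCs (adjusted p = 0.00486). Gm20421, on the opposite strand, covers 31.8% of the exonic length of Hes5, and since the library kit is not stated to keep the strand their reads cannot be told apart. Gm20421 itself was at most 0.0990 FPKM.

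Olig2, a basic helix-loop-helix factor of motor neuron and oligodendrocyte precursors (ENSMUSG00000039830, chr16:91225457-91228677, plus strand), was present in all pluripotent samples and listed at 0 in both MEF samples. Its FPKM in OSKM-ESCs was 8.73 and 13.1 on day 18, 19.6 and 17.7 on day 25, and 12.3 and 11.6 on day 38. In 2iL-ESCs it was 6.41 and 7.55, then 7.55 and 8.05, then 8.90 and 9.48. The groups overlapped only through the lower day 18 culture in OSKM medium, and the OSKM-ESC peak fell on day 25. The means over all days were 13.8 ± 4.05 and 7.99 ± 1.09 FPKM (SD, n = 6 each), a ratio of 1.73 and a log2 difference of 0.69 (SE 0.14, adjusted p = 0.0011, limma, and exact permutation p = 0.006494).

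The Olig2 ratio was 2.39 on day 25 (log2 difference 1.16, SE 0.10, adjusted p = 0.000953) and 1.30 on day 38 (0.34, SE 0.07, adjusted p = 0.0104), and on day 18 the gene was not called (0.56, adjusted p = 0.0584, limma). The day 38 call was lost in the fit of all 9 conditions (adjusted p = 0.259) and without either OSKM-ESC culture of that day (0.0808 and 0.0528) or the first 2iL-ESC culture (0.0673). The interaction was called (adjusted p = 0.0349) and was lost with no filter, with TPM and in the fit of all 9 conditions. It was also lost when any 1 of 9 of the 12 cultures was left out, that is, any culture of day 25 or day 38 or the second 2iL-ESC culture of day 18. Olig2 was highest on day 25, unlike Fabp7, Pax3, Zic1 and Hes5, which were highest on day 38.

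Tubb3, the neuronal tubulin (ENSMUSG00000062380, chr8:123411424-123422015, plus strand), had the highest FPKM of the genes in every pluripotent group but went the other way. In OSKM-ESCs it read 27.1 and 33.5 FPKM on day 18, 32.6 and 24.8 on day 25, and 29.3 and 28.9 on day 38. In 2iL-ESCs it read 56.9 and 54.8, then 41.9 and 44.5, then 59.9 and 62.5. The highest OSKM-ESC culture was below the lowest 2iL-ESC culture, as was so for 12% of all genes tested. The means were 29.4 ± 3.28 and 53.4 ± 8.38 FPKM (SD, n = 6 each), a ratio of 0.550 and a log2 difference of -0.83 (SE 0.09, adjusted p = 1.26e-05, limma, exact permutation p = 0.002165).

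Tubb3 fell short of its 2iL-ESC level on day 18 (-0.87 on the log2 scale, SE 0.13, adjusted p = 0.00265), day 25 (-0.59, adjusted p = 0.0228) and day 38 (-1.05, adjusted p = 5.77e-05, limma). The calls of days 18 and 25 were lost without either 2iL-ESC culture of the day, in fits that called a smaller share of all genes too. The day 25 call was also lost with no filter on low values. Over the alternatives the difference was -1.02 to -0.72 on day 18 and -0.78 to -0.40 on day 25. The Tubb3 level differed between days within 2iL-ESCs (adjusted p = 0.00253, limma), where day 25 was lowest. In OSKM-ESCs no such difference was called (adjusted p = 0.891). The interaction was not called (adjusted p = 0.153), except without the second OSKM-ESC culture of day 25.

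By single days, 3 of 4 genes tested were called on day 18 (Nes, Tubb3 and Fabp7), 4 of 4 on day 25 (Pax6, Nes, Tubb3 and Olig2) and 8 of 8 on day 38. Fabp7 on day 18, Pax6 on day 25 and Pax6, Pax3, Zic1, Hes5 and Fabp7 on day 38 passed the filter only through OSKM-ESCs, so nothing is read from these counts. The shares of all genes tested that were called were 43.4% on day 18, 46.0% on day 25 and 59.8% on day 38 (34.6% higher). The interaction was called for 6 of 8 genes, beside 37.9% of all genes tested, and 5 of the 6, Olig2 being the exception, passed the filter only through OSKM-ESCs. Days within OSKM-ESCs were called for 6 of 8, beside 38.6%, and days within 2iL-ESCs for 2 of 3 tested, beside 50.8%. All 3 comparisons use the same ESC cultures. Without the day 38 cultures, an alternative chosen after the data were seen, Pax6 alone kept a called interaction, and over all days Pax6, Nes, Tubb3, Olig2 and Fabp7 were called.

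**Figure D3:**
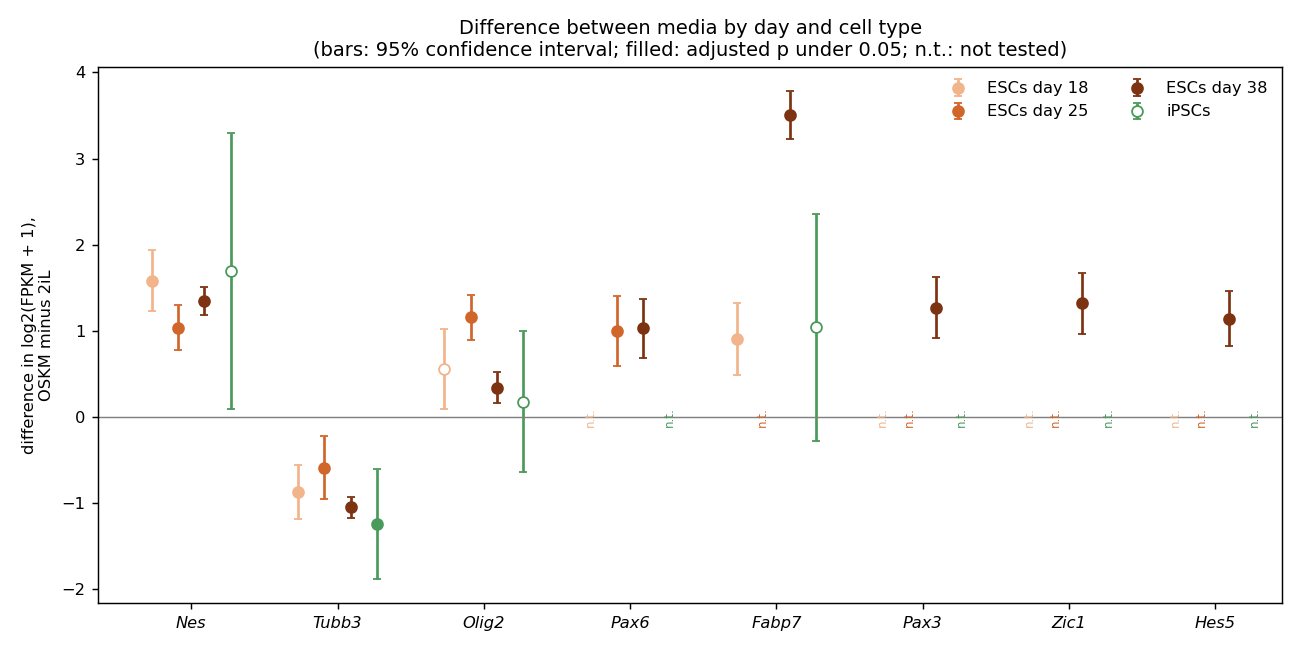
Difference between OSKM and 2iL medium on the log2(FPKM + 1) scale (y axis) for each neural lineage gene tested (x axis), on each day in ESCs and in iPSCs, with the 95% interval of the limma fit as a bar, filled points for called genes and n.t. where the gene was not tested. The Fabp7 point of day 38 is the highest at 3.51, the Tubb3 points all lie below 0, and Pax3, Zic1 and Hes5 have a point on day 38 alone.

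Ranked by FPKM, 2iL-ESCs had Tubb3 first, then Olig2 at 7.99 ± 1.09 and Nes at 5.59 ± 1.24, followed by Pax6. In OSKM-ESCs the order was Tubb3, Nes at 15.5 ± 3.20 and Olig2 at 13.8 ± 4.05, followed by Fabp7 and Pax6. This order over all days did not hold on day 25, when Olig2 (18.6) stood above Nes (12.5) and Pax6 (1.17) above Fabp7 (0.634), nor on day 38 for Pax6 (1.37), which was below Fabp7 (11.1) and within the spread of Zic1 (1.5) and Pax3 (1.42). Nes and Olig2, neighbours in that order, lay within one SD of each other in OSKM-ESCs. MEF cells had a different order, with Nes at 22.5 ± 2.49, Tubb3 at 9.54 ± 1.11, Zic1 at 8.16 ± 0.63 and Fabp7 at 5.82 ± 1.26 (SD, n = 2), and there Tubb3 and Zic1 were not farther apart than their spreads together.

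Over the 16 samples other than MEF, the correlations of Pax3, Zic1, Hes5 and Fabp7 with each other were between 0.90 and 0.98 (Pearson's r of log2(FPKM + 1)). These points share groups, and the 2 OSKM-ESC cultures of day 38 carry the pattern. Among 14621 genes searched, the 3 nearest to Hes5 were Msgn1, Gm28230 and Shh (r = 0.99 each), and those nearest to Pax3 were Hes3, Kif26b (0.99 each) and Fabp7 (0.98). Msgn1, a factor of presomitic mesoderm, averaged 11.5 ± 1.04 FPKM in OSKM-ESCs of day 38 (SD, n = 2). The nearest genes to Zic1 were Glra1, Hoxb2 and Haglr (0.98 each), and Hoxb2, a homeobox gene of the hindbrain and trunk, averaged 10.7 ± 0.347 FPKM in OSKM-ESCs of day 38. Fabp7 was nearest to Scara3, Cdh6 and the polarity gene Crb2 (0.99 each).

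The other genes had other neighbours. Pax6 was nearest to the imprinted noncoding RNA genes Rian (0.94) and Mirg (0.91) and their imprinted neighbour Dlk1 (0.91). Rian averaged 206 ± 18.7, 282 ± 44.1 and 479 ± 12.8 FPKM on days 18, 25 and 38 in OSKM-ESCs (SD, n = 2 each) and 92.0 to 114 in 2iL-ESCs. Nes was nearest to the membrane protease Mmp14 (0.97), Frem2 and Nrep (0.96 each), and Mmp14 averaged 177 ± 3.67 FPKM in MEF cells. Olig2 was nearest to Tubb5 (0.92), Nectin1 (0.89) and Slc19a1 (0.88). Tubb3, which correlated negatively with the other genes (r from -0.64 to -0.27), was nearest to Lap3 and Qars (0.94 each) and Zfp428 (0.93).

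Mesoderm genes moved on the same day as Pax3, Zic1, Hes5 and Fabp7. The summed FPKM of 7 mesoderm markers was 38.5 to 54.2 in OSKM-ESCs on day 18, 17.2 to 17.9 on day 25 and 218 to 221 on day 38, against 6.33 to 9.43 in 2iL-ESCs. T (brachyury, the defining gene of the primitive streak) read 194 and 198 FPKM on day 38 and 13.3 to 48.9 before, and Tbx6, a presomitic mesoderm factor, read 14.8 and 13.3 on day 38 and at most 0.507 before. On day 38, 5 of 5 mesoderm markers tested were called higher (limma), T and Tbx6 among them, beside 34.6% of all genes tested, and 3 of the 5 passed the filter only through OSKM-ESCs. The 6 endoderm markers summed to 5.14 to 6.83 FPKM on day 38 and 0.584 to 2.02 before. The part of mesoderm cells in the day 38 values of the neural lineage genes was not tested.

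Of the 6 markers taken to define neurons, 3 stayed under 1 FPKM in every sample. Dcx, a microtubule protein of migrating neurons, was 0.0962 to 0.195 FPKM in OSKM-ESCs and listed at 0 in 2iL-ESCs. Rbfox3, the NeuN antigen, was at most 0.396 and Snap25, a synaptic gene, at most 0.974 FPKM in any sample. Elavl3, a neuronal RNA-binding protein, was 1.14 to 2.12 in OSKM-ESCs and 0.600 to 0.983 in 2iL-ESCs. Stmn2 read 52.2 to 91.1 in OSKM-ESCs and 69.3 to 118 in 2iL-ESCs, and Map2 read 3.89 to 12.3 and 2.06 to 3.98. Some other neuronal genes were well above 0 and higher in OSKM-ESCs. The neurofilament Nefl read 30.7 to 52.3 against 3.99 to 13.9, and the growth cone gene Gap43 12 to 38.5 against 3.36 to 6.75. Others were lower, such as Tubb2b at 73.9 to 110 against 157 to 174. Of 14 proneural and neuronal genes tested over all days, 7 were called higher and 4 lower, beside 29.5% and 24.4% of all genes tested. Of these, 3 higher and 2 lower passed the filter only through the group where they were high. Pluripotency genes were lower in OSKM medium, with a summed FPKM of 8 markers of 612 to 1135 against 2099 to 2672. Of these 8, 7 were called lower and 1 higher over all days, beside 24.4% and 29.5% of all genes tested. In MEF cells they summed to at most 0.466.

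**Figure D4:**
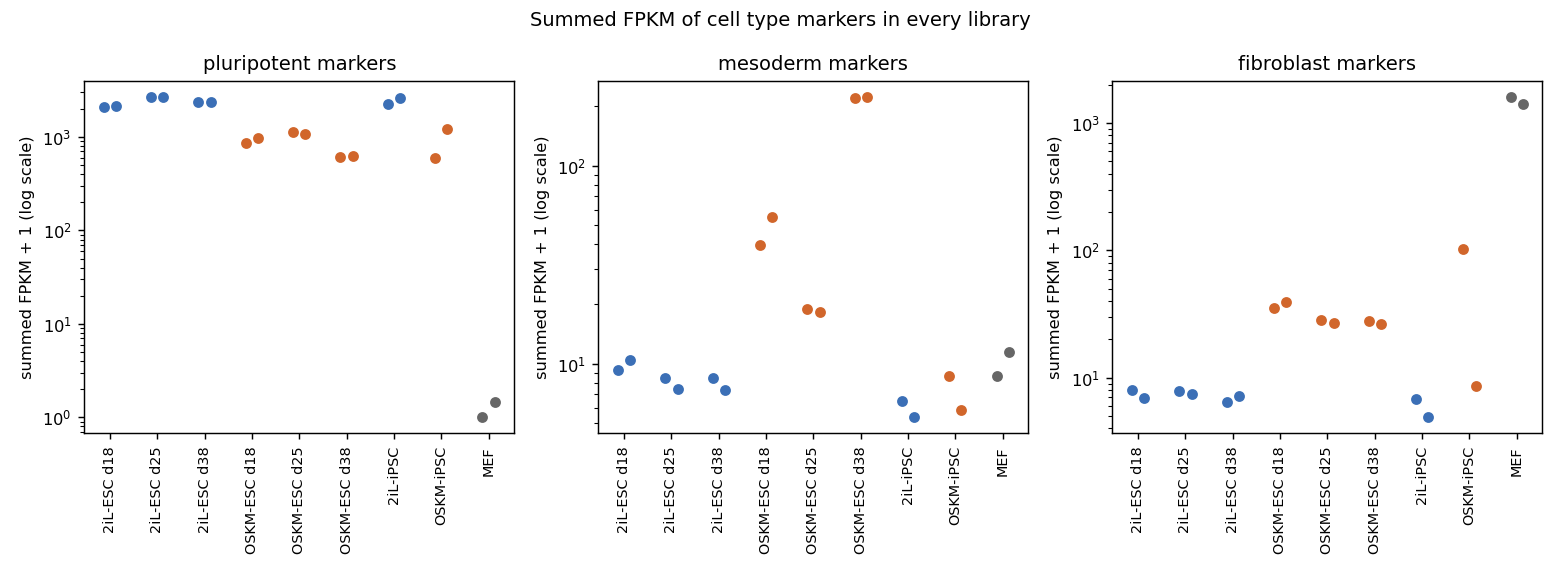
Summed FPKM plus 1 (y axis, log scale) of the pluripotent, mesoderm and fibroblast markers in each sample by group (x axis), 1 panel per list and 1 point per sample. The mesoderm sum reaches 218 to 221 in OSKM-ESCs of day 38, and the fibroblast sum of OSKM-iPSC clone 1 is 102.

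Wider lists of neural genes moved in both directions over all days in the same comparison. They were put together with earlier results of these data known, so their counts are a description, to be read beside the 53.8% of all genes tested that were called over all days (29.5% higher and 24.4% lower). Genes that passed the filter only through the group where they were high are counted too, and the filter fixed their direction. Of the neural plate factors called they were 2 higher, Otx2 and Irx3, and 1 lower, Hesx1. Of 27 neural plate and regional transcription factors, 13 were tested, 7 were called higher and 3 lower, and the median log2 difference was 0.47. Higher were Pou3f1, a POU factor of epiblast and neural plate (3.14, SE 0.31, adjusted p = 5.28e-06), the forebrain factor Otx2 (3.10, SE 0.10, adjusted p = 1.19e-09) and the neural tube factor Irx3 (2.55, SE 0.12, adjusted p = 1.56e-08, limma). Otx2 read 8.67 to 14.6 FPKM in OSKM-ESCs and 0.282 to 0.865 in 2iL-ESCs. Such groups without overlap, with OSKM-ESCs on top, were found for 14.6% of all genes tested. Lower were the pituitary and forebrain factor Hesx1 (-2.91, SE 0.08, adjusted p = 1.95e-10), the midbrain factor En2 (-0.78) and Nkx6-2 (-0.68). Hesx1 read 0.363 to 0.571 FPKM in OSKM-ESCs and 9.18 to 10.8 in 2iL-ESCs.

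Of 12 neural progenitor and radial glia genes, 11 were tested, 7 were called higher and 1 lower, with a median of 1.0. The growth factor Ptn (3.75, SE 0.27, adjusted p = 3.79e-07), the stem cell antigen Prom1 (2.37) and N-cadherin, Cdh2 (2.13), led the genes that were higher, and Vim (vimentin) was lower (-0.51, SE 0.07, adjusted p = 6.59e-05, limma). Ptn read 7.58 to 10.2 FPKM in OSKM-ESCs before day 38, 38.5 and 39.4 on day 38 and at most 0.396 in 2iL-ESCs, and it was 88.3 and 59.5 in MEF cells. Cdh2 was also highest in MEF cells, at 41.0 and 47.1. Of the 7 called higher, 3, Ptn among them, passed the filter only through OSKM-ESCs. Day 38 had 10 of 11 called higher and 1 lower, beside 34.6% and 25.2% of all genes tested. Of those 10, 3 passed the filter only through OSKM-ESCs.

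Of 22 Notch pathway genes, 19 were tested, 10 were called higher and 2 lower, with a median of 0.40. Of these 10, 1 (Dll3) passed the filter only through OSKM-ESCs. The ligands Dll1 (1.97, SE 0.32, adjusted p = 0.000275) and Dll3 (1.79, SE 0.33, adjusted p = 0.000612) and the receptor Notch3 (1.76, SE 0.10, adjusted p = 6.66e-08, limma) were higher, and the effector Rbpj (-0.55) and the glycosyltransferase Mfng (-0.31) lower. Dll1 read 21.0 and 20.1 FPKM on day 38 in OSKM-ESCs and 1.82 to 4.55 before, and Dll3 16.6 and 15.2 against 1.90 to 2.95. Dll1 and Dll3 were thus highest on the day on which Hes5 was, as was the ligand Jag1. The ligand Jag2 had its highest OSKM-ESC culture on day 25. Rbpj was lowest in OSKM-ESCs on day 38, at 19.5 and 19.3 FPKM against 26.5 to 34.0 before. Dll1 and Dll3 are also genes of presomitic mesoderm. On day 38, 14 of the 19 were called higher and 3 lower, beside 34.6% and 25.2% of all genes tested. Of the 14, 2 passed the filter only through OSKM-ESCs.

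Of 26 proneural and neuronal genes, 14 were tested, 7 were called higher and 4 lower, with a median of 0.14. Of those called, 3 higher and 2 lower passed the filter only through the group where they were high. Insm1, Mapt and Neurog1 were among these. Crmp1, an axon growth gene (2.45, SE 0.10, adjusted p = 6.01e-09), the neuroendocrine factor Insm1 (2.26) and the neurofilament Nefl (2.24) were higher. Mapt (tau, -1.30, SE 0.19, adjusted p = 0.00011, limma), Tubb2b (-0.77) and the proneural factor Neurog1 (-0.64) were lower. Of these, Tubb2b passed the filter in both media and was, like Tubb3, a tubulin gene with a lower level in OSKM medium. The cytoskeletal gene Nefl went the other way. The neural crest list had 3 called higher (Twist1, Ets1 and Msx1) and 1 lower (Erbb3) of 7 tested and 12 in all, with a median of 0.09. Ets1 and Msx1 passed the filter only through OSKM-ESCs. The glial and oligodendrocyte list had 3 higher (Mbp, Olig1 and Pdgfra) and 1 lower (Aldh1l1) of 5 tested and 9 in all, with a median of 0.52. Pdgfra passed the filter only through OSKM-ESCs and Aldh1l1 only through 2iL-ESCs. Olig1, the neighbour and relative of Olig2, was higher by 0.74 (SE 0.11, adjusted p = 0.000114, limma), with overlapping groups of 6.72 to 18.3 and 5.38 to 9.01 FPKM.

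Among 10 paralogs of Tubb3 and Fabp7, 8 were tested, 4 were called higher and 2 lower. Tubb4a (2.50), Tubb6 (1.38), Tubb5 (0.21) and Fabp5 (2.54) were higher and Tubb2b (-0.77) and Fabp3 (-1.87) lower, while Tubb2a (0.08, adjusted p = 0.539) and Tubb4b (0.20, adjusted p = 0.222, limma) were not called. Tubb1 and Fabp4 stayed under the filter. Only uniquely mapped reads were used, so reads that matched several of these related genes would have been left out.

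**Figure D5:**
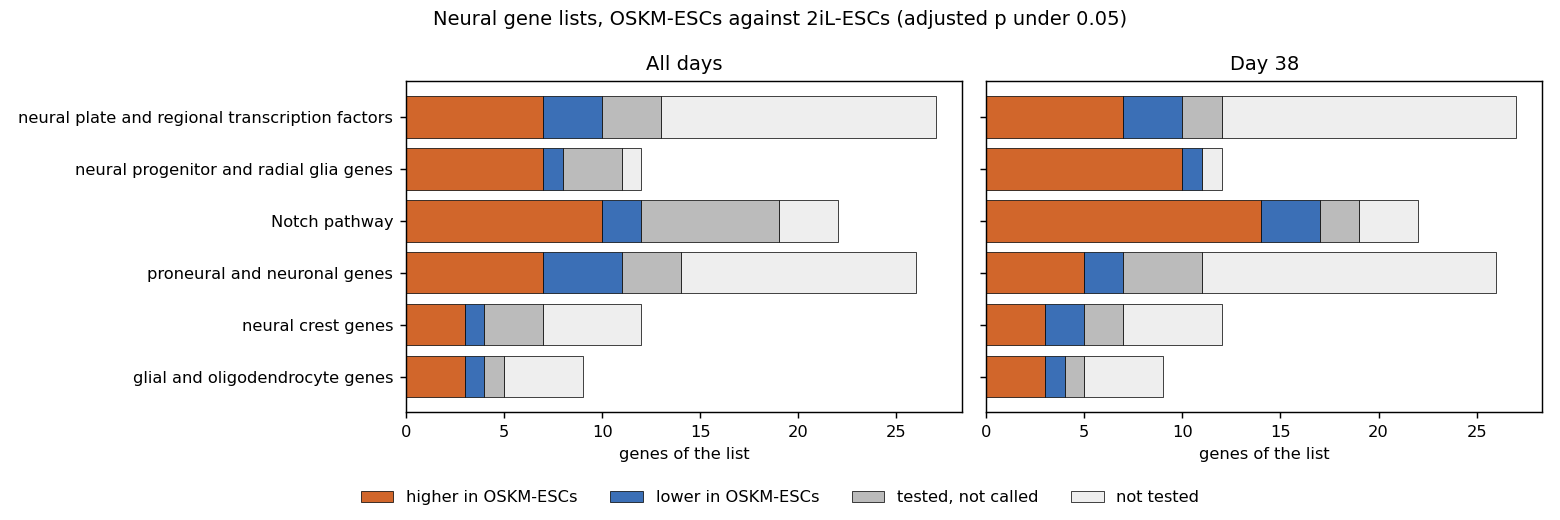
Number of genes (x axis) of each neural list (y axis) that were called with a higher or a lower level in OSKM-ESCs, were tested and not called, or were not tested, over all days and on day 38. Each list has genes called in both directions, and the neural progenitor list goes from 7 called higher over all days to 10 on day 38.

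In iPSCs the same comparison of media rested on 2 clones each, and the clones of OSKM medium differed. Nes read 25.3 FPKM in OSKM-iPSC clone 1 and 5.38 in clone 3, and 3.00 and 3.01 in the 2iL-iPSC clones. Fabp7 read 2.40 and 0.243 in the OSKM-iPSC clones and was listed at 0 in both 2iL-iPSC clones. Clone 1 also held Pax3 at 0.422 and Zic1 at 0.243, which were listed at 0 in the other 3 clones. The fibroblast markers summed to 102 FPKM in clone 1, 7.58 in clone 3 and 3.88 to 5.84 in 2iL-iPSCs, and Col1a2 read 36.1 in clone 1 and 0.130 in clone 3. The part of fibroblast RNA in the clone 1 values was not tested. Olig2, which was listed at 0 in MEF cells, was 8.42 in clone 1 and 7.66 in clone 3.

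Of the 4 genes tested between OSKM-iPSCs and 2iL-iPSCs, Tubb3 alone was called, beside 7.96% of all genes tested (2.96% lower in OSKM-iPSCs). Tubb3 read 26.9 and 18.8 FPKM in OSKM-iPSCs and 45.7 and 65.1 in 2iL-iPSCs, which did not overlap. The difference was -1.24 on the log2 scale (SE 0.25, adjusted p = 0.0465, limma), and the call was lost under 8 alternatives, with adjusted p between 0.0502 and 0.345. The direction was that of the ESCs, which are other samples.

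Nes differed by 1.69 on the log2 scale in iPSCs with a 95% interval of 0.09 to 3.29 and an adjusted p of 0.155, and Fabp7 by 1.04 (adjusted p = 0.248, limma). Both were called without clone 3 of OSKM-iPSCs (adjusted p = 0.0252 and 0.0254) and in the fit of all 9 conditions (0.00626 and 0.0205). Olig2 read 4.85 and 9.89 FPKM in 2iL-iPSCs, and its difference of 0.18 had an interval of -0.64 to 1.0 (adjusted p = 0.742). Pax6 read 0.286 and 0.865 in OSKM-iPSCs and 0.581 and 0.344 in 2iL-iPSCs, which overlapped.

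Against MEF cells, Tubb3 was higher in iPSCs of both media. Olig2 passed the filter only through iPSCs, and Zic1 and, against 2iL-iPSCs, Fabp7 only through MEF cells, so the filter fixed their direction and their calls support nothing. Between OSKM-iPSCs and MEF cells 3 of 5 genes tested were called, beside 60.3% of all genes tested (34.0% higher and 26.4% lower), where the median of all genes was itself shifted by 0.19 on the log2 scale. Tubb3 was higher by 1.16 (adjusted p = 0.0122), Zic1 lower (-3.04, adjusted p = 0.00148) and Olig2, at 0 in MEF cells, higher (adjusted p = 0.00121, limma). Nes (-0.85, adjusted p = 0.345) and Fabp7 (-1.72, adjusted p = 0.0505) were not called, and without clone 1 both were (adjusted p = 0.0133 and 0.0181).

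Between 2iL-iPSCs and MEF cells all 5 genes tested were called, beside 78.0% of all genes tested (40.6% higher and 37.4% lower). Nes was lower (-2.55, adjusted p = 5.91e-05), Tubb3 higher (2.40, adjusted p = 0.000297) and Olig2 higher (adjusted p = 0.000672, limma). Zic1 (adjusted p = 3.93e-05) and Fabp7 (adjusted p = 0.000129) were listed at 0 in both 2iL-iPSC clones. Both comparisons use the same MEF samples. Without either MEF sample none of the OSKM-iPSC calls held (adjusted p 0.0625 to 0.132), but that fit called 0% of all genes tested. In 2iL-iPSCs the Olig2 call alone did not hold (0.0504 and 0.0510), where 51.1% and 51.6% of all genes were called.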

How the data were processed

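RNA-Seq was read in 18 samples: 6 OSKM-ESC, 6 2iL-ESC, 2 OSKM-iPSC, 2 2iL-iPSC and 2 MEF. The authors extracted RNA with TRIzol, made poly-T selected NEBNext libraries, aligned them to GRCm38 with STAR 2.7.1a and passed the uniquely mapped reads to StringTie 2.0. The deposited FPKM values are its output, scaled to transcript length and to mapped fragments. As an alternative, FPKM values were rescaled to TPM within each sample. The deposited TPM values, usable in 16 samples, served only to check this rescaling. The deposited coverage, an unscaled signal per base, was used as a check of relative depth: its median per unit of FPKM was 2.99 to 3.62. No read counts were given, so the depth in fragments is unknown and no counting intervals could be set. Genes over 1 FPKM numbered 11303 to 12095 per sample.

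Of 55471 genes, 2 with a failed value (St13 and U2surp) were left out, and 11 IDs listed more than once were summed, none of them a member. Positions came from the files, and GENCODE M21 gave the same coordinates for 99.4% of IDs. Differences were tested with limma 3.58.1 in R 4.3.3 (lmFit and eBayes, with trend) on log2(FPKM + 1), a pseudocount of 1, in the groups compared alone. Comparisons over all days had day as a term. The filter was an FPKM over 1 in at least 1 sample. Exact permutation tests were two-sided. The study used Cuffdiff 2.2.1, which needs alignments. The procedure was tested on simulated data. Figures and descriptions used Python 3.11.15.

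The 9 genes, the lists and the tests were chosen with earlier results of these data known. From each list the text names at most 3 genes called higher and 3 called lower with the largest differences over all days, and all paralogs; genes nearest to a member are its 3 highest correlations. Marker genes, the genes over which the nested scan ran and genes beside a result are named besides. Promoter windows came from RefSeq on GRCm38.p6 and were not filtered. Same-numbered cultures were blocked in an alternative, and no sequencing batch was given in the labels.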

Additional observations from a re-analysis of the deposited data

Results flagged for a closer look

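The difference between OSKM-ESCs and 2iL-ESCs varied between days 18, 25 and 38 for 6 neural lineage genes, each by limma's test of the medium by day interaction. The span is the largest minus the smallest difference on the log2(FPKM + 1) scale, and for genes listed at 0 in 2iL-ESCs it depends on the pseudocount. All but Olig2 passed the filter only through OSKM-ESCs. Fabp7 had a span of 2.84, with differences of 0.91, 0.67 and 3.51 on days 18, 25 and 38 (adjusted p = 9.01e-06). Pax3 had a span of 1.19, with 0.18, 0.08 and 1.27 (adjusted p = 0.000649). Zic1 had a span of 1.14, with 0.18, 0.24 and 1.32 (adjusted p = 0.00435). Hes5 had a span of 1.14, with 0.08, 0 and 1.14 (adjusted p = 0.000987). Pax6 had a span of 0.81, with 0.22, 1.0 and 1.03 (adjusted p = 0.0123), and this call was lost without the first 2iL-ESC culture of day 18. Olig2 had a span of 0.81, with 0.56, 1.16 and 0.34 (adjusted p = 0.0349, lost when any 1 of 9 of the 12 cultures was left out), and was alone among these genes in having its largest difference on day 25. Each group of 1 day, medium or cell type held 2 samples, too few for a test of a sample that stands apart.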

How the results depend on the processing

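Precision was limited by 2 cultures per day and medium, and the depth in fragments is unknown. Of 553 values of single genes under alternatives, 506 kept their direction and their side of the threshold, 32 lost the call, 13 gained it and 2 changed sign. The sign changes were Olig2 between iPSC media (-0.27 to 0.63 over the clones left out, lowest without 2iL-iPSC clone 3) and Nes between OSKM-iPSCs and MEF cells (-1.87 to 0.17, highest without OSKM-iPSC clone 3), and neither value with a changed sign was called. Without day 38, chosen after the data were seen, the number of genes with a called interaction fell from 6 to 1. Days within OSKM-ESCs were called for 3 to 6 genes when single cultures were left out, with 3 (Pax3, Hes5 and Fabp7) without the second OSKM-ESC culture of day 38 (16.2% of all genes called, against 38.6%). Between iPSC media, where Tubb3 alone was called, 0 genes were called with no filter, with quantile normalization, with TPM and without the trend, 3 in the fit of all 9 conditions (Nes, Tubb3 and Fabp7) and 2 at the fold over 2 and unadjusted p under 0.05 of the study (Nes and Tubb3). The share of all genes called moved too, from 7.96% to 0%, 6.31%, 8.14%, 6.97%, 45% and 17.8% in that order. It was 0 to 2 when single clones were left out, with 2 (Nes and Fabp7) without OSKM-iPSC clone 3 (15.5% of all genes called) and 0 without either 2iL-iPSC clone (0% of all genes). Between OSKM-iPSCs and MEF cells 3 genes were called, and 0 to 5 when single samples were left out, with 0 without either MEF sample (0% of all genes called) and 5 without OSKM-iPSC clone 1. A group left with 1 sample was taken to vary like the other. The cause was not tested.

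The labels give cultures the same numbers in both media. The deviations of same-numbered cultures correlated at 0.131, 0.090 and 0.012 on days 18, 25 and 38, which does not show that the numbers pair the cultures. With the replicate block 6, 4, 4 and 8 genes were called over all days and on days 18, 25 and 38, where Pax3 over all days was no longer called (adjusted p = 0.0734) and Olig2 on day 18 was (adjusted p = 0.00258).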
